A study of Saccharomyces cerevisiae with 2 samples.

Results

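The genes described here code for 10 mitochondrial enzymes of the citric acid cycle in budding yeast: CIT1, ACO1, IDH1, IDH2, KGD1, KGD2, LSC1, LSC2, FUM1 and MDH1. They were taken by name as a pathway, with earlier results of these data known. All 10 were found among the 5593 genes with a value for their reading frame. Of 41282 nuclear probes on the array, 73 lay in their frames or in the 500 bp upstream of them. The cells, of strain MDY513, carried a deletion of HTZ1, which codes for the histone variant H2A.Z. They were held in G1 with the mating pheromone alpha factor (4 µg/mL for 4 h) and then put in rich medium with 2% galactose. They made one tagged H3, H3-Myc, constitutively and another, H3-Flag, from a promoter that galactose induces. After 180 min, chromatin was precipitated with antibody to either tag, linearly amplified and hybridised to 2-colour tiling arrays, with Flag in green and Myc in red on both arrays. All samples share the deletion, the arrest and the medium, so no group was compared with another: 1 group of 2 replicate arrays was analysed.

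The citric acid cycle oxidises acetyl-CoA in the mitochondrial matrix and supplies NADH to respiration and carbon skeletons to amino acid synthesis. In yeast, glucose represses most of its genes, galactose represses them less, and the HAP and retrograde (RTG) transcription factors act on many of them. In an assay of this kind, a high ratio of induced to constitutive H3 marks DNA where recently made H3 is a larger part of the histone H3 present. Such exchange is known to be high at many promoters and to accompany passage of RNA polymerase II through strongly transcribed genes. H2A.Z, absent here, normally sits in the nucleosomes that flank promoters.

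Values are log2 of Flag over Myc, centred on the median probe of each array, so 0 stands for a typical probe of that array and says nothing of equal amounts. Errors are the SD of the 2 arrays (n = 2). Probes, frames and promoters were tested for their difference from the array median. Differences within a gene (promoter minus frame, or between parts of the frame) were tested against 0. All tests were by limma with Benjamini-Hochberg adjustment over all genes or probes, at an adjusted p under 0.05. With 2 arrays an exact two-sided sign-flip test cannot go below p = 0.5, and separate cultures are not stated for the replicates, so the limma p-values measure only the spread between these arrays. For genes, limma took that spread largely from all genes together rather than from the gene itself. No array carried the dyes the other way round, and a dye effect on a probe cannot be told apart from its ratio. The arrays correlated at r = 0.97 across 34899 used probes, and the single HTZ1 frame probe was dark in both channels.

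Probes are 60 bp long and a median of 267 bp apart, so each gene was read at few places. Of the 73 probes, 60 were bright and unflagged on both arrays, 47 in frames and 13 upstream. Among these 60, 38 were higher than the array median and 10 lower. Over all used probes, 40.5% were higher and 40.1% lower. Of the 10 lower probes, 6 lay in KGD1, 2 in LSC1, 1 in KGD2 and 1 in FUM1, all inside frames. No upstream probe was lower, at an adjusted p or at an unadjusted p under 0.05.

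In the files' coordinates, of a build not given in the sources used here, the frame of CIT1 lies on chromosome 14 from 629622 to 631061 (minus strand) and that of ACO1 on chromosome 12 from 735214 to 737550 (minus strand). IDH1 is on chromosome 14 from 557919 to 559001 (minus strand), and IDH2 on chromosome 15 from 580250 to 581359 (plus strand). KGD1 spans 122689 to 125733 on chromosome 9 (plus strand), and KGD2 spans 753670 to 755061 on chromosome 4 (minus strand). LSC1 runs from 593057 to 594046 on chromosome 15 (plus strand), and LSC2 from 978041 to 979324 on chromosome 7 (minus strand). FUM1 is at 47336 to 48802 on chromosome 16 (plus strand), and MDH1 at 278768 to 279772 on chromosome 11 (plus strand). The frames thus lie on 8 chromosomes, and none of the 10 is next to another.

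Most of the reading frames stood above the array median. Of the 10, 8 were higher, against 39.1% of all 5593 genes, and 2 were lower, against 42.9% of all genes. Their median was 0.88, against -0.06 over all genes. The genes were chosen with earlier results of these data known, so these comparisons are descriptions only. The range was wide, from CIT1 at 2.63 ± 0.35 to KGD1 at -0.47 ± 0.18. CIT1 and ACO1, enzymes of the first reactions of the cycle, held the highest frames, followed by MDH1 of its last reaction. The subunits of one and the same complex differed.

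**Figure D1:**
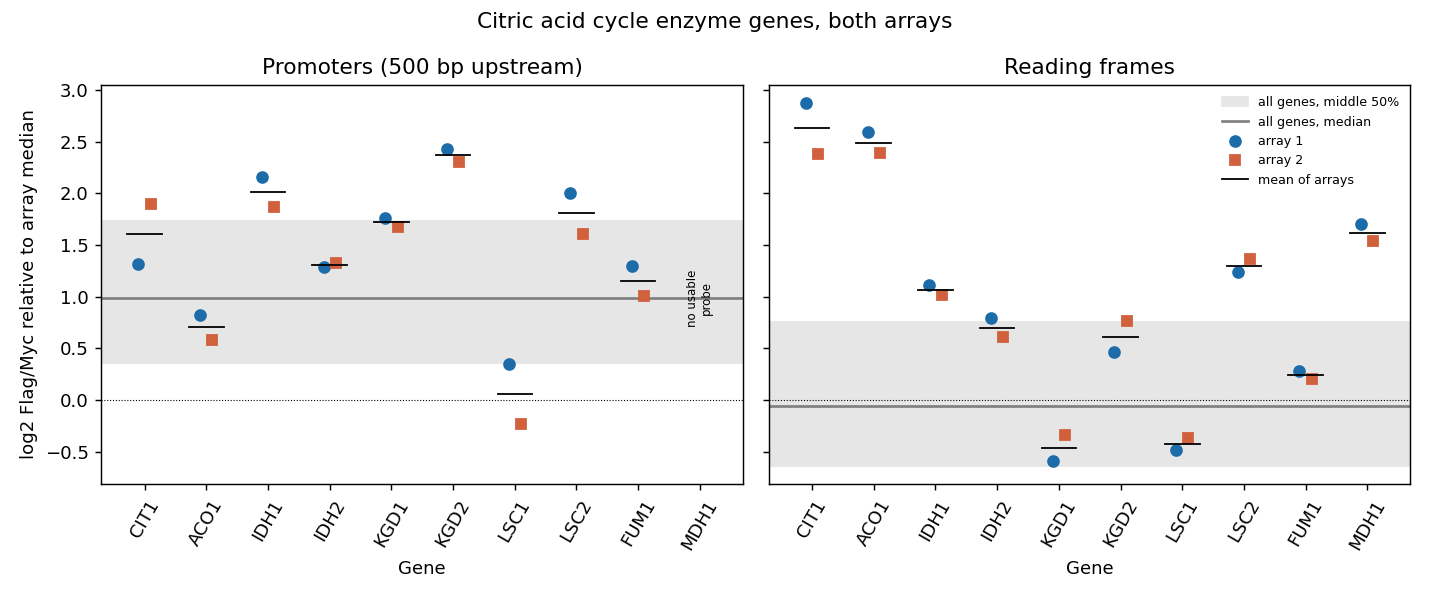
Centred log2 Flag over Myc in the 500 bp upstream (left) and in the reading frame (right) of each gene, in cycle order; circles and squares are arrays 1 and 2, black bars their mean, the grey line the median and the grey band the middle 50% of all genes. CIT1 and ACO1 stand far above the band in their frames, with means inside it upstream, whereas KGD1 and LSC1 have frame values below 0 on both arrays.

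Upstream DNA was higher than the array median for 8 of the 9 genes that had a usable probe there. This was also the state of most promoters, since 75.9% of 4547 were higher and 6.97% lower. None of the 9 was lower, at an adjusted p or at an unadjusted p under 0.05 in limma, and LSC1 did not pass. The median of the 9 was 1.61, against 0.99 over all promoters. Here limma gave every promoter the same estimated spread, and the p-values are very small for that reason. The values of CIT1, ACO1, IDH1, KGD2, LSC2 and FUM1 each rest on 1 usable promoter probe, and MDH1 had none.

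The difference between promoter and frame turned the usual way in most of these genes. In 7 of 9 the promoter was higher than the frame (69.4% of 4399 genes) and in 2 of 9, CIT1 and ACO1, it was lower (10.3% of genes). The median difference was 0.61 for the 9 genes and 0.91 for all genes. Across genes, promoter and frame values had a Spearman correlation of 0.10 in the 9 genes and 0.48 in all 4399. Both values of a gene share arrays, and neighbouring DNA fragments can reach both regions, so these correlations are descriptions only.

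**Figure D2:**
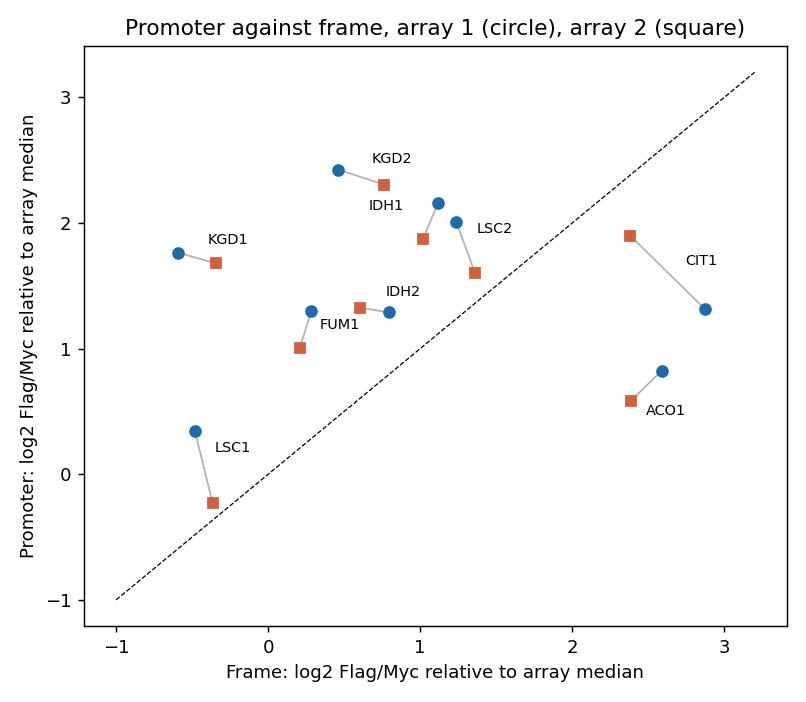
Promoter value (vertical) against frame value (horizontal) for the 9 genes with both, as centred log2 Flag over Myc; each gene is a circle (array 1) joined to a square (array 2), and the dashed line marks equal values. CIT1 and ACO1 lie below the line on both arrays and the other 7 genes above it.

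CIT1, which codes for the mitochondrial citrate synthase that joins acetyl-CoA to oxaloacetate, had the highest frame of the 10. Its 3 usable frame probes averaged 2.87 on array 1 and 2.38 on array 2. The frame was 6.18-fold over the array median (limma adjusted p = 1.35e-06), at percentile 95.8 of all genes. Under loess normalization it was lower and varied more between the arrays, at 1.98 ± 1.07 (limma adjusted p = 0.0045). The ratio was level along the frame: the probes centred 446, 946 and 1280 bp after the start codon had 2.44, 2.61 and 2.83. Each frame was also cut into 3 equal segments (start, middle and end). Neither end of CIT1 differed from its middle segment at the threshold, with a start minus middle difference of -0.17 ± 0.05 (adjusted p = 0.31). That difference was -0.49 and called lower when dim probes were kept, and -0.58 and called lower under loess normalization. End minus middle was 0.22 ± 0.04, but 0.48 and called higher under loess (adjusted p = 0.044) and -0.11 without a call when dim probes were kept.

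High values went on past the CIT1 stop codon, where 2 further probes had 2.52 and 2.81. The centromere of chromosome 14 is listed 862 bp beyond that stop codon, and the next gene there, DOM34, which acts in rescue of stalled ribosomes, had a frame value of -0.04 ± 0.03. Upstream, the 1 usable promoter probe had 1.32 on array 1 and 1.90 on array 2, a mean of 1.61 ± 0.41 (limma adjusted p = 3.38e-21), and 2.60 in a window of 1000 bp. This probe is listed inside another open reading frame, YNR001W-A, which was not used as a gene here. Promoter minus frame was -1.56 on array 1 and -0.48 on array 2 (mean -1.02 ± 0.76, limma adjusted p = 0.000723), so its size differed strongly between the arrays. The difference lost its call under loess normalization (-0.78, adjusted p = 0.089) and with a promoter window of 1000 bp (-0.03), which adds a probe of 3.59 centred at position -630.

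ACO1 codes for aconitase, the iron-sulfur enzyme that turns citrate into isocitrate. Its frame, read by 8 probes, averaged 2.59 on array 1 and 2.39 on array 2, within the range of CIT1. The mean of 2.49 ± 0.14 was 5.61-fold over the array median (limma adjusted p = 4.68e-07). Under loess normalization the frame value was 1.98 ± 0.68 (limma adjusted p = 0.0013). All 8 probes were higher than the array median. They did not stand level: the lowest, 1.60, was centred 620 bp after the start codon, and from there each probe was higher than the one before it up to 3.57 at 2192 bp.

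The end segment of the ACO1 frame exceeded the middle segment by 0.88 and 0.84 on the 2 arrays (mean 0.86 ± 0.03, limma adjusted p = 0.00124). Beyond the stop codon, 2 probes that were not used still had high values, 1.82 at 2372 bp (outlier flag) and 2.89 at 2556 bp (Myc dim on 1 array). The first usable probe there, centred 2852 bp after the start codon, had -0.44 ± 0.12. The converging neighbour MET17, which makes homocysteine, had a frame value of 0.20 ± 0.25 that did not pass. Upstream, the single usable promoter probe, centred at position -470 from the start codon, had 0.82 on array 1 and 0.58 on array 2. This mean of 0.70 ± 0.17 (limma adjusted p = 3.94e-05) lay below the median promoter and lost its call under loess normalization (0.15, adjusted p = 0.45). Promoter minus frame was -1.77 on array 1 and -1.80 on array 2, and its mean of -1.78 ± 0.03 (limma adjusted p = 2.93e-07) stood at percentile 0.864 of all genes. CIT1 has paralogues (CIT2 and CIT3) whose similar DNA a probe may also read.

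**Figure D3:**
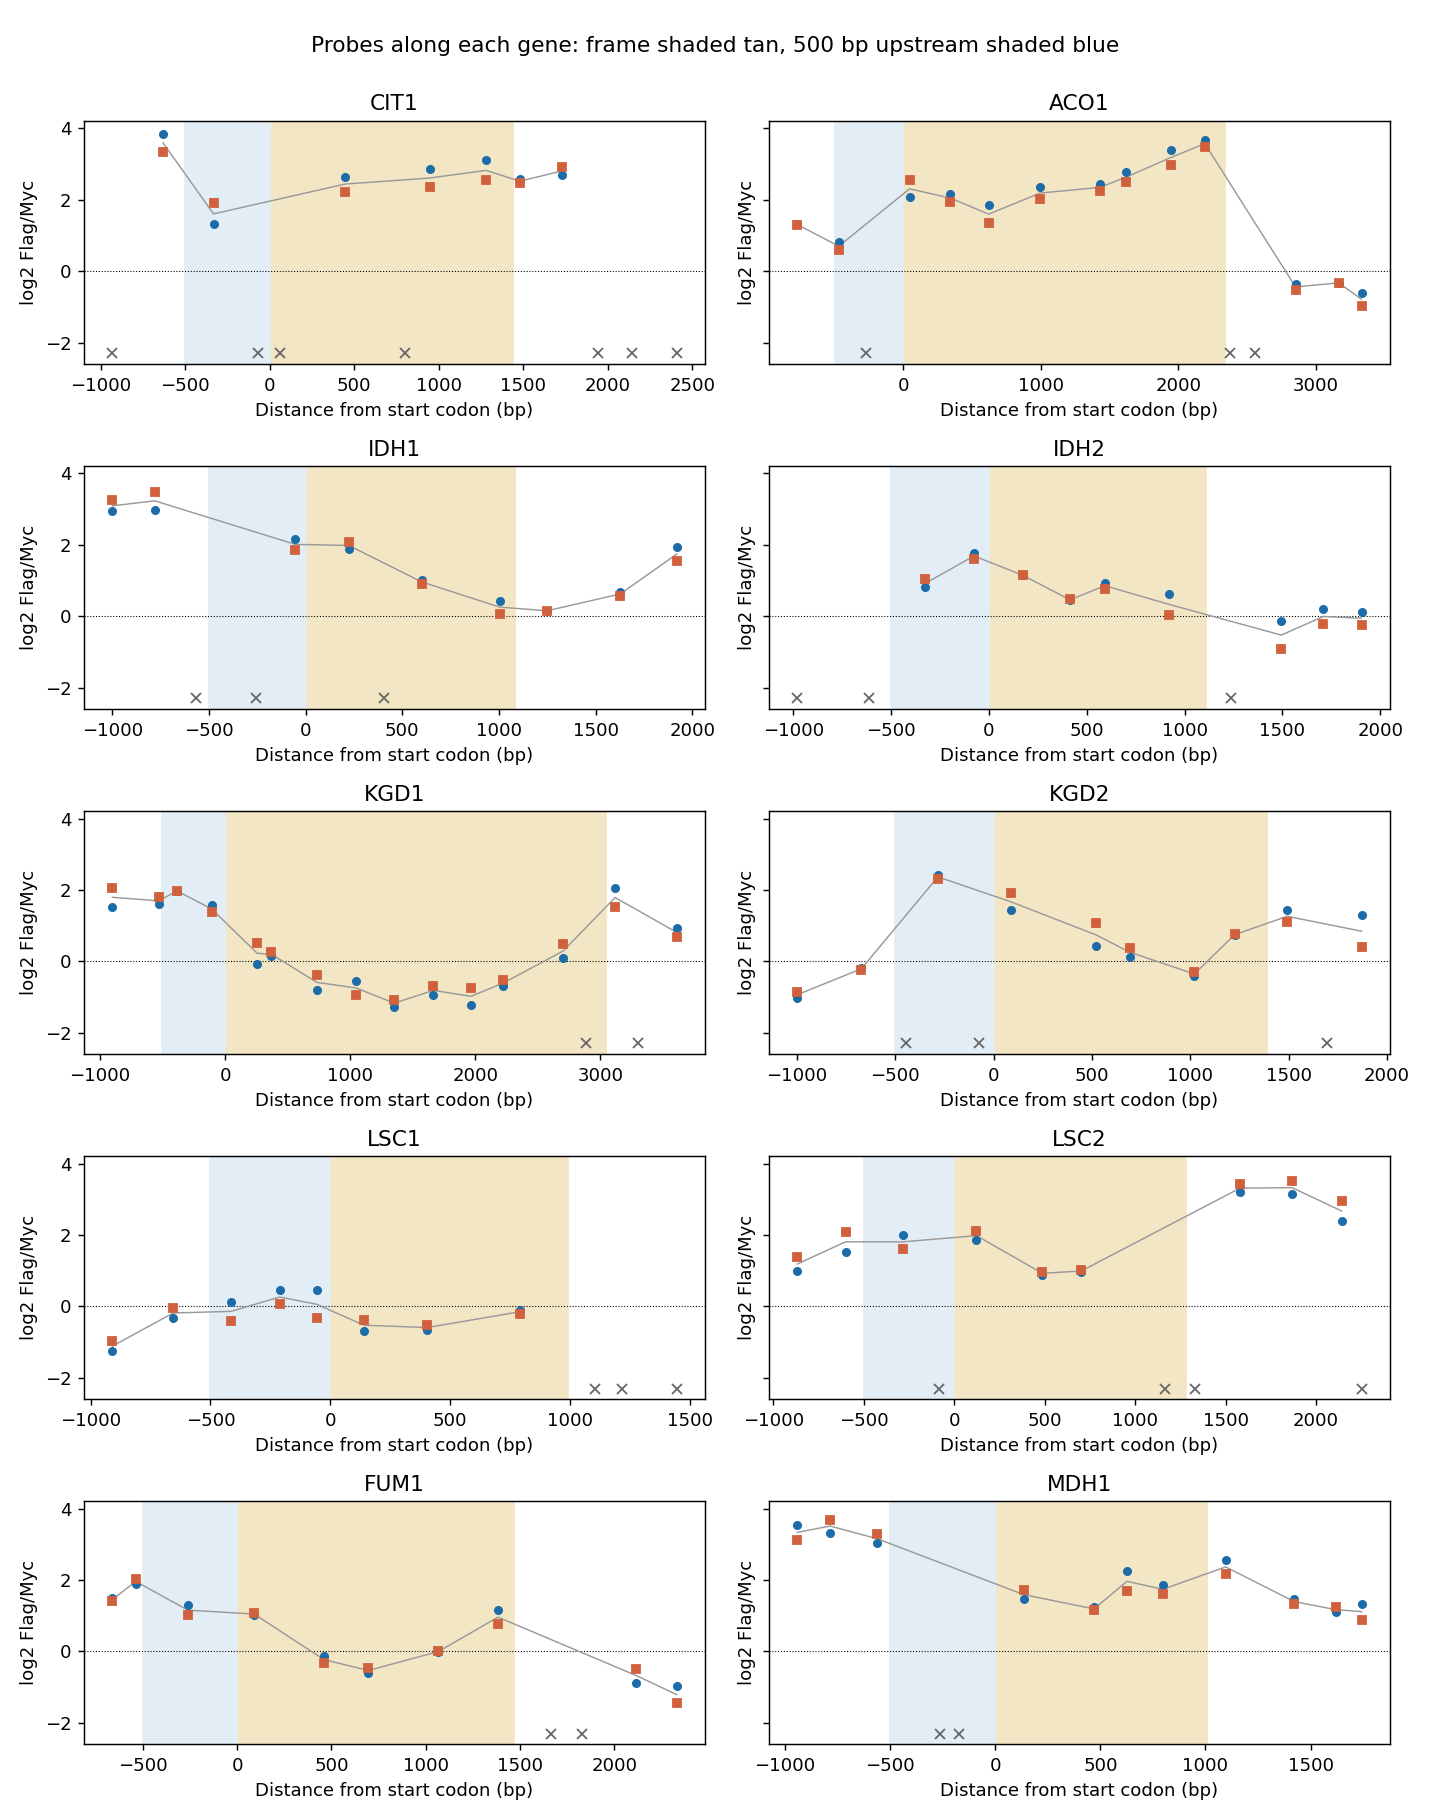
Centred log2 Flag over Myc (vertical) at each probe against its distance in bp from the start codon (horizontal), with circles for array 1, squares for array 2 and a line through their mean; tan is the frame, blue the 500 bp upstream, and crosses near the axis mark probes that were dim or had an outlier flag and were not used. ACO1 climbs to 3.57 near its end, KGD1 dips to -1.17 inside its frame, and IDH1 descends along its frame from 1.99 to 0.26.

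IDH1 and IDH2 code for the regulatory and the catalytic subunit of the NAD-dependent isocitrate dehydrogenase, which makes alpha-ketoglutarate. The IDH1 frame averaged 1.12 on array 1 and 1.02 on array 2, 2.10-fold over the array median (mean 1.07 ± 0.07, limma adjusted p = 2.18e-05). The IDH2 frame averaged 0.79 and 0.61, 1.62-fold over the median (mean 0.70 ± 0.13, adjusted p = 0.000269), or 0.40 under loess normalization. The IDH1 frame was higher than the IDH2 frame on both arrays, by 0.37 ± 0.06. Both upstream regions were higher than their own frames.

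The IDH1 promoter probe had 2.16 on array 1 and 1.87 on array 2 (limma adjusted p = 2.83e-32), and exceeded the frame by 0.95 ± 0.13 (adjusted p = 0.000178). That difference was 0.48 (adjusted p = 0.048) with dim probes kept and 1.56 in a window of 1000 bp. IDH2 had 1.29 and 1.33 upstream over 2 probes (adjusted p = 1.6e-14), and exceeded its frame by 0.61 ± 0.16 (adjusted p = 0.00585), or by 0.99 in a window of 250 bp. Of the IDH2 upstream probes, the one centred 76 bp before the start codon (1.69) is listed inside another open reading frame, YOR135C, which was not used as a gene here. Averaged over probes, both genes thus had higher values in front of the start codon than in the frame. The excess was close to the median gene's difference for IDH1 and below it for IDH2. In IDH1 the frame probe at 223 bp had 1.99, next to 2.01 at the promoter probe. In IDH2 the upstream probe at -325 had 0.92, below 1.15 at the frame probe 175 bp after the start codon.

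Along the IDH1 frame the ratio fell from 1.99 at 223 bp to 0.96 at 602 bp and 0.26 at 1004 bp. The start segment exceeded the middle segment by 1.02 ± 0.22 (limma adjusted p = 0.000325), and the end segment lay below it (-0.70 ± 0.17, adjusted p = 0.00412). In IDH2 the start segment was also higher, by 0.49 ± 0.05 (adjusted p = 0.0137), a call lost under loess normalization, where the difference was 0.04. The end segment of IDH2 differed from the middle by -0.06 on array 1 and -0.59 on array 2, and did not pass, but it was called lower with normexp background correction (-0.39, adjusted p = 0.032) and under loess (-1.54, adjusted p = 0.00034). NCE103, the carbonic anhydrase gene that diverges from IDH1, had a much higher frame, 3.64 ± 0.02, and BAG7, the gene upstream of IDH2, had 1.64 ± 0.01.

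KGD1 and KGD2 code for the dehydrogenase and the succinyltransferase component of the alpha-ketoglutarate dehydrogenase complex, which makes succinyl-CoA. Their promoters were both high while their frames lay on opposite sides of the array median. The KGD1 frame, the longest of the 10 at 3045 bp with 9 usable probes, averaged -0.59 on array 1 and -0.34 on array 2. It was 1.38-fold below the array median (mean -0.47 ± 0.18, limma adjusted p = 0.00317). The KGD2 frame averaged 0.46 and 0.76, 1.53-fold over it (mean 0.61 ± 0.21, adjusted p = 0.00096), with 0.41 under normexp and 0.34 under loess. KGD1 was lower than KGD2 on both arrays, with a mean difference of -1.08 ± 0.03.

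Upstream of KGD1 the 2 probes averaged 1.76 on array 1 and 1.68 on array 2 (limma adjusted p = 4.76e-24). Its promoter exceeded its frame by 2.36 and 2.02 (mean 2.19 ± 0.24, adjusted p = 5.01e-08), the largest such difference of the 9 genes and percentile 89.8 of all genes. KGD2 had the highest promoter of the 9, at 2.43 and 2.31 (mean 2.37 ± 0.08, adjusted p = 1.16e-43), on 1 probe. It stood below the IDH1 promoter under normexp, under loess and in a window of 1000 bp. The KGD2 promoter exceeded its frame by 1.75 ± 0.30 (adjusted p = 5.51e-07). That probe lies between KGD2 and the divergent gene NUM1, which codes for a cortical protein that anchors dynein and mitochondria, so it counts for both genes. The NUM1 frame was low, at -1.03 ± 0.07, and the probe cannot be assigned to either gene alone.

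The KGD1 frame was lowest in its middle. Its probes fell from 0.22 at 258 bp to -1.17 at 1352 bp and stood at 0.29 at 2703 bp, and 6 of 9 were lower than the array median. The start segment exceeded the middle by 0.87 ± 0.16 (limma adjusted p = 0.000711) and the end segment exceeded it by 0.77 ± 0.10 (adjusted p = 0.00241), the latter without a call under loess normalization (0.41, adjusted p = 0.086). Just beyond the stop codon, in the DNA upstream of AYR1, a reductase of lipid synthesis, a probe had 1.79. KGD2 instead went from 1.67 at 89 bp to -0.35 at 1021 bp and 0.75 at 1226 bp. Its start segment exceeded the middle by 1.17 ± 0.02 (adjusted p = 0.000103), and its end segment, at -0.30 ± 0.28 from the middle, did not pass.

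LSC1 and LSC2 code for the alpha and beta subunits of succinyl-CoA ligase, the step of the cycle that makes ATP directly. They were the most unlike pair. The LSC1 frame averaged -0.48 on array 1 and -0.37 on array 2, 1.34-fold below the array median (mean -0.42 ± 0.08, limma adjusted p = 0.00322). The LSC2 frame averaged 1.24 and 1.36, 2.46-fold over it (mean 1.30 ± 0.09, adjusted p = 8.88e-06). LSC1 was below LSC2 by 1.72 and 1.73 on the 2 arrays. Each frame rests on 3 probes.

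The promoters of the pair differed as much as the frames, by 1.66 and 1.83 on the 2 arrays (mean LSC1 minus LSC2 -1.75 ± 0.12). LSC2 had 2.01 on array 1 and 1.61 on array 2 (limma adjusted p = 2.59e-26), on 1 probe. LSC1 had 0.35 on array 1 and -0.23 on array 2, which lie on opposite sides of the array median, and its mean of 0.06 ± 0.40 did not pass (adjusted p = 0.74). It was the lowest promoter of the 9, at percentile 15.3 of all promoters. All 3 LSC1 promoter probes lie between LSC1 and the divergent gene ARP8, which codes for an actin-related subunit of the INO80 remodeller and had a frame value of -0.39 ± 0.08.

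Promoter minus frame was 0.83 and 0.14 on the 2 arrays for LSC1 (mean 0.48 ± 0.49, limma adjusted p = 0.0353) and 0.77 and 0.25 for LSC2 (mean 0.51 ± 0.37, adjusted p = 0.0225). Both calls are near the threshold. The LSC2 call was lost under loess normalization (0.20), and the LSC1 call was lost when dim probes were kept (adjusted p = 0.051). Within the LSC2 frame the ratio fell from 1.98 at 123 bp to 0.93 at 487 bp and 0.99 at 702 bp, with the start segment higher than the middle by 1.02 ± 0.12 (adjusted p = 0.00025). The end segment of LSC2 had no usable probe. In LSC1, start minus middle was 0.06 ± 0.12 and did not pass, but was -0.15 under normexp and, called lower, -0.83 under loess (adjusted p = 0.0033). The LSC1 frame was higher in its end segment by 0.44 ± 0.19 (adjusted p = 0.0325), a call lost under normexp background correction (0.29) and under loess (0.32). Past the LSC2 stop codon lies the converging gene MPC3, a mitochondrial pyruvate carrier subunit, with a frame value of 3.32 ± 0.21.

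FUM1 codes for fumarase, which hydrates fumarate to malate and is found in mitochondria and cytosol. Its frame was the closest of the 10 to the array median, at 0.28 on array 1 and 0.21 on array 2 (mean 0.25 ± 0.05, limma adjusted p = 0.0341). The call did not hold under every setting: the frame value was 0.05 with normexp background correction, 0.15 with dim probes kept, -0.12 under loess, and -0.0042 as the median of its probes. That mean covers a U-shaped course. Probes stood at 1.05 at 90 bp, -0.53 at 696 bp and 0.96 at 1383 bp.

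Both ends of the FUM1 frame were higher than its middle, the start segment by 0.94 ± 0.14 (limma adjusted p = 0.000424) and the end segment by 1.01 ± 0.23 (adjusted p = 0.000857). KGD1 was the other gene of the 10 with both ends called higher than its middle, while LSC2 could not be tested at its end. The promoter probe had 1.30 on array 1 and 1.01 on array 2 (mean 1.16 ± 0.21, adjusted p = 1.17e-11), and exceeded the frame by 0.91 ± 0.15 (adjusted p = 0.000266). That difference was at percentile 50.1 of all genes, the middle of the distribution.

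MDH1 codes for the mitochondrial malate dehydrogenase, which regenerates oxaloacetate and closes the cycle. Its frame averaged 1.70 on array 1 and 1.54 on array 2, 3.07-fold over the array median (mean 1.62 ± 0.12, limma adjusted p = 3.45e-06). All 4 probes were higher, from 1.19 at 470 bp to 1.96 at 627 bp. Its ends did not differ from its middle at the threshold (start 0.01 ± 0.39, end 0.16 ± 0.04). As in CIT1, the ratio stayed high over the whole frame. Both neighbouring frames were high too: SRX1, which codes for sulfiredoxin, had 3.33 ± 0.22, and HOT13, a factor of protein import into the intermembrane space, had 1.28 ± 0.01. MDH1 has paralogues (MDH2 and MDH3) whose similar DNA a probe may also read.

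Ranked by frame value on both arrays, CIT1 and ACO1 came first and overlapped each other. MDH1, LSC2 and IDH1 followed in that order without overlap between neighbours. Under loess normalization the means stood in the reverse order: IDH1 had 1.31 ± 0.00055, LSC2 1.25 ± 0.026 and MDH1 1.20 ± 0.66. The spread of MDH1 there exceeds these differences, so its rank against IDH1 and LSC2 is not settled under loess. IDH2 and KGD2 overlapped, FUM1 stood apart below them, and LSC1 and KGD1 overlapped at the bottom. For promoters, KGD2 stood apart at the top, followed by IDH1, LSC2, KGD1, CIT1, IDH2 and FUM1, each overlapping the next. ACO1 and LSC1 stood apart below these. The top rank of KGD2 rested on 1 probe and did not hold under every setting. KGD2 stood below IDH1 under normexp (1.66 against 1.70) and under loess (1.86 against 2.07). In a window of 1000 bp KGD2, at 2.37, stood below IDH1 (2.62) and CIT1 (2.60). The order of frames and that of promoters therefore differed, as KGD1 came last for frames and near the middle for promoters, and ACO1 near the top for frames and near the bottom for promoters.

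By segments of the frame, the genes had several shapes. The start segment was higher than the middle in 6 of 10 (IDH1, IDH2, KGD1, KGD2, LSC2 and FUM1), against 60.3% of 4176 genes. None was lower at an adjusted p or at an unadjusted p under 0.05, against 9.29% of all genes at the adjusted threshold. The end segment was higher in 4 of 9 (ACO1, KGD1, LSC1 and FUM1), against 49.3% of 4134 genes, and lower in 1 of 9 (IDH1), against 13.4%. These shares are near those of all genes. In level, the medians of the start, middle and end segments were 1.63, 0.81 and 0.34 for these genes, and 0.17, -0.50 and -0.04 for all genes. LSC2 had no usable probe in its end segment, so the end median of 0.34 covers 9 genes and the other medians 10. Within genes, the median of end minus middle was 0.22 for the 9, against 0.39 over all genes.

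**Figure D4:**
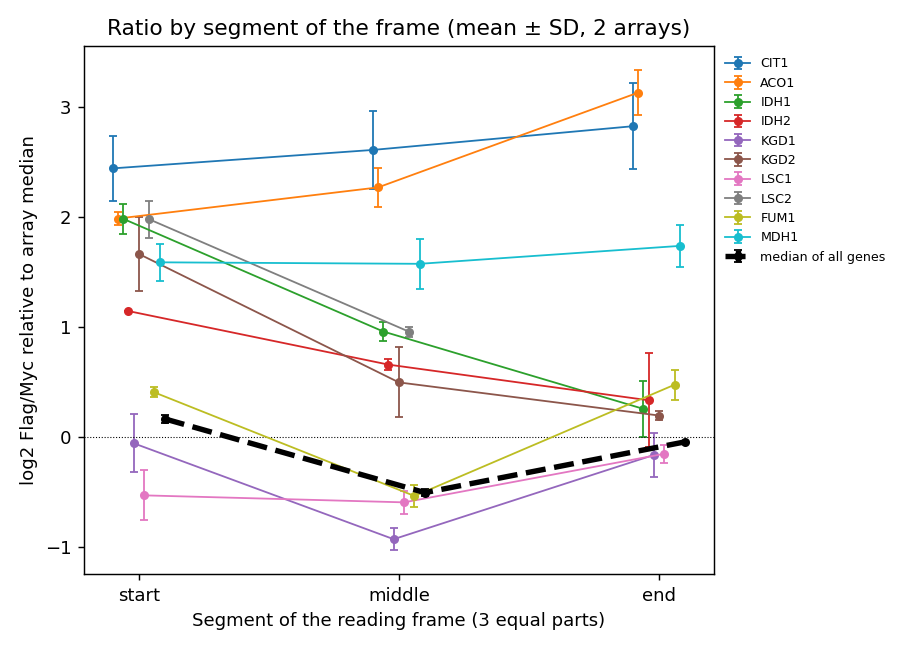
Centred log2 Flag over Myc (mean ± SD of 2 arrays) in the start, middle and end segment of each frame, with the median of all genes as a black dashed line. CIT1, ACO1 and MDH1 stay above 1.5 throughout, IDH1 descends from 1.99 to 0.26, and KGD1 and FUM1 are lowest in the middle segment.

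Frame length was set beside the frame value, since longer genes had lower ratios over the genome. The Spearman correlation of length and frame value was -0.50 over all 5593 genes and -0.03 over the 10. The shortest frame, LSC1 with 990 bp, had the second-lowest value, and ACO1 with 2337 bp the second-highest. Longer frames hold more probes far from their ends, so length and position in the frame are not independent.

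Other genes around the cycle were read in the same way. Of 9 further mitochondrial cycle subunits and isozymes, 5 had a higher frame (39.1% of all genes), 1 a lower one (42.9%) and 3 missed the threshold, with a median of 0.25. The highest was SDH1, the flavoprotein subunit of succinate dehydrogenase, at 1.71 and 1.92 on the 2 arrays (mean 1.81 ± 0.15). The lowest was IDP1, the mitochondrial NADP-dependent isocitrate dehydrogenase, at -0.38 and -0.39 (limma adjusted p = 0.00459). LPD1, the lipoamide dehydrogenase component of the complex of KGD1 and KGD2, had -0.07 ± 0.21 and did not pass. Upstream, all 7 with a probe were higher, against 75.9% of all promoters, from SDH2, the iron-sulfur subunit, at 0.52 ± 0.17 to SDH1 at 2.05 ± 0.18.

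The 5 isozymes outside the matrix had 4 higher frames, against 39.1% of all genes, and a median of 1.43. CIT2, the peroxisomal citrate synthase, led them with 1.89 on array 1 and 2.93 on array 2 (mean 2.41 ± 0.74), next to 2.63 ± 0.35 for CIT1. The lowest was IDP3, the peroxisomal NADP-dependent isocitrate dehydrogenase, with 0.08 ± 0.17, which did not pass. CIT2 had the highest promoter of this list, 3.50 and 4.13 on the 2 arrays (mean 3.82 ± 0.44, next to 1.61 ± 0.41 for CIT1), and IDP2, the cytosolic NADP-dependent isocitrate dehydrogenase, the lowest at 1.35 ± 0.44.

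Genes through which carbon enters the cycle were read next. Of 10 frames, 6 stood above the array median (39.1% of all genes), 3 below it (42.9%), and 1 missed the threshold (median 0.36). The 3 lower ones all code for pyruvate dehydrogenase subunits: PDA1 had -0.71 ± 0.03, LAT1 -0.59 ± 0.02 and PDB1 -0.46 ± 0.09. PDX1, another subunit of that complex, was higher, at 0.46 ± 0.09 (limma adjusted p = 0.00222). MPC3, the pyruvate carrier subunit next to LSC2, was the highest at 3.32 ± 0.21. Of 9 promoters in this list, 8 were higher, against 75.9% of all promoters, with MAE1, the mitochondrial malic enzyme, at the top (3.06 ± 0.11), and LAT1 the lowest at 0.16 ± 0.28, which did not pass.

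Among 7 carriers of cycle intermediates across the inner membrane, 6 frames were higher and 1 lower, against 39.1% and 42.9% of all genes, with a median of 1.12. ODC1, an oxodicarboxylate carrier, had 3.30 and 3.25 on the 2 arrays (mean 3.28 ± 0.03). OAC1, the oxaloacetate carrier, was the lower one at -0.75 ± 0.02. All 4 carrier promoters with a probe were higher, as were 75.9% of all promoters, from ODC2 at 1.83 ± 0.30 to DIC1, the dicarboxylate carrier, at 3.46 ± 0.44.

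The transcription factors and signalling proteins that act on cycle genes were mixed. Of 8, 5 frames were higher and 3 lower (median 0.34), against 39.1% and 42.9% of all genes. HAP4, the activating subunit of the HAP complex, was the highest with 2.99 and 2.76 on the 2 arrays (mean 2.87 ± 0.16). The 3 lower frames were those of retrograde pathway genes: RTG3, a transcription factor, had -0.96 ± 0.01, MKS1, its negative regulator, -0.63 ± 0.09, and RTG2, the upstream activator, -0.58 ± 0.02. RTG1, the partner of RTG3 and the remaining gene of that pathway in the list, was higher, at 0.97 ± 0.33 (limma adjusted p = 0.000194). Of 5 promoters, 3 were higher and 2 lower, against 75.9% and 6.97% of all promoters. HAP3, a DNA-binding subunit of the HAP complex, was highest at 1.43 ± 0.40, while HAP2, another such subunit, at -1.05 ± 0.40 and RTG3 at -0.69 ± 0.07 were lower (limma adjusted p = 7.08e-10 and 5.77e-05).

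**Figure D5:**
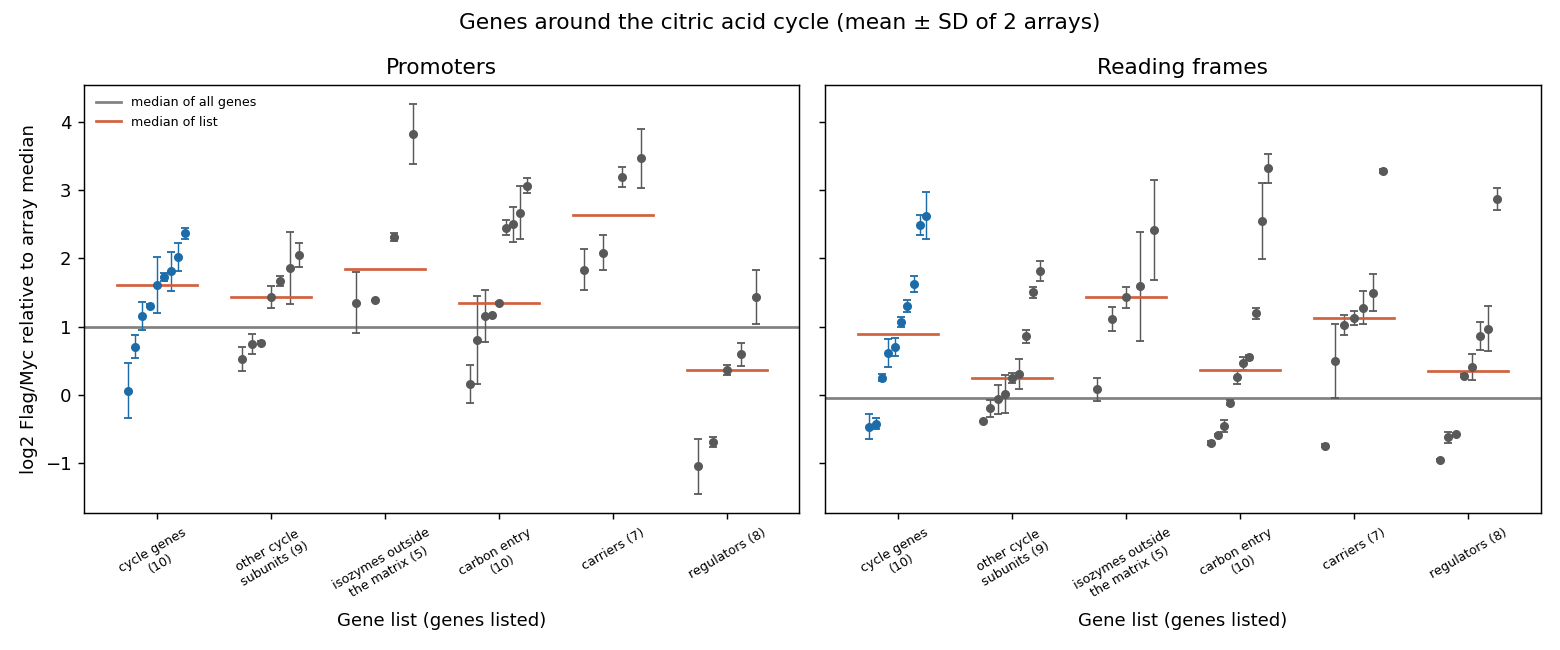
Centred log2 Flag over Myc of each promoter (left) and frame (right) in 6 lists of genes, each point a gene with the SD of 2 arrays, red bars the median of a list and the grey line that of all genes. The cycle genes are in blue; carriers have the highest median promoter and regulators the lowest.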

How the data were processed

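Per the file headers, the authors made the spot intensity values with Feature Extraction 8.5.1.1 (Agilent). The log10 ratio they deposited is Myc (red) over Flag (green). Their deposited log2 value table gives the same ratio, to within 4.9e-08 of the scanner files, and both have the opposite sign to the values printed here. Log2 of green over red processed signal was taken per probe and centred on each array's median. Of 41282 nuclear probes, 3964 not well above background and 2419 with outlier flags were left out, which kept 34899. Arrays give no count depth, and their number (2) limits the precision.

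Left ends of frames came from the distances listed in the files and lengths from a RefSeq gene table of assembly R64, which matched 5927 of 6593 frames; 12 contradicted by the listing were dropped. A probe belonged to a frame by its midpoint, or to a promoter if it lay within 500 bp upstream and in no frame. Gene values are means of usable probes, and probes between divergent genes count for both. Tests used limma 3.58.1 in R 4.3.3 (intercept, eBayes, Benjamini-Hochberg at 0.05), tested on simulated data. Alternatives were background correction, normalization, filter, value table, probe summary, window and replicate. All 10 genes are described, and of the other lists the highest, the lowest and every lower member; members and lists were chosen with earlier results of these data known. Probe sequences were not used here, and no motif was searched.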

Additional observations from a re-analysis of the deposited data

How the results depend on the processing

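No paired analysis was possible because there is only 1 group. The median frame value of the 10 genes was 0.68 with normexp background correction, 0.80 under loess, 0.79 with dim probes kept and 0.83 with the median of probes, and 0.89 to 0.96 leaving out either array. For promoters the median was 1.32, 1.21 and 1.40 under the first 3 of these and 1.32 to 1.61 leaving out either array. For promoter minus frame it was 0.70, 0.76 and 0.50, with 0.97 in a 250 bp window, 0.94 in a 1000 bp window and 0.72 to 0.83 leaving out either array. Start minus middle segment gave 0.59 with normexp, 0.37 under loess and 0.60 to 0.68 leaving out either array. End minus middle segment gave 0.16 with normexp, 0.32 under loess and 0.16 with dim probes kept. Over single probes the median was 0.79, 0.90 and 0.86 under normexp, loess and no dim filter, and 0.99 to 1.01 leaving out either array. Higher frames were 7 under each of normexp, loess, no dim filter and median of probes. Under loess, higher promoters were 7, promoters above their frames 6, and higher starts 5. Promoters above their frames were also 6 of 10 with dim probes kept, and higher ends were 3 under normexp and under loess. The end segment was lower in 2 genes with normexp and in 2 under loess. The start segment was lower in 2 genes under loess and in 1 with dim probes kept. The promoter was lower than the frame in 1 gene under loess, in 1 with a 1000 bp window and in 0 of 4 with a 250 bp window, where 4 were higher and 3 of 4 promoters stood above the array median. Signs turned for FUM1 frames (loess -0.12, median of probes -0.0042), the LSC1 promoter (-0.038 with dim probes kept, -0.23 to 0.35 leaving out either array), and for start minus middle segment in LSC1 (normexp -0.15, loess -0.83, -0.022 to 0.15 leaving out either array), ACO1 (loess 0.026) and MDH1 (loess -0.035, -0.26 to 0.29 leaving out either array). End minus middle segment turned in KGD2 (loess 0.10), MDH1 (loess -0.25) and CIT1 (-0.11 with dim probes kept). The causes were not tested. Of the other single-gene values that could be tested, 255 kept their direction and their side of the threshold, 11 lost their call and 5 gained one. The 255 include the deposited value table, which is the same ratio, so its values could not change. They also include settings that kept the same probes of a gene, such as only probes wholly inside the frame. With 1 array left no test was possible: 91 single-gene values kept their sign and 3 turned, and calls were not counted.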

Other observations

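Of the 73 probes in the frames and promoters, 13 were not used, and their values are given here without tests. In the CIT1 frame, probes centred 64 and 799 bp after the start codon had 2.65 (outlier flag) and 3.26 (dim in Myc on 1 array), the latter above every used CIT1 frame probe. The CIT1 promoter probe at -72, with an outlier flag, had 1.23 on both arrays. In LSC2, a flagged probe at 1166 bp, near the end of the frame and towards MPC3, had 2.34 on array 1 and 2.71 on array 2, above every used LSC2 probe. A flagged KGD1 probe at 2883 bp had 0.78 ± 0.43, between the used probes at 2703 bp (0.29) and past the stop codon (1.79). In IDH1, the flagged probe at 408 bp had 1.32, between its used neighbours at 1.99 and 0.96.

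Upstream of MDH1, the probe centred at position -262 from the start codon had 2.36 on both arrays, with Flag well above background on both and Myc on 1 of them. The other, at -170, was dark in both channels on both arrays. Of the KGD2 promoter probes, that at -76 had 1.70 on array 1 and 3.25 on array 2 with Myc dim on both, and that at -443 had -0.01 and 1.30. Dim promoter probes of ACO1 and IDH1 had 0.58 ± 0.11 and 1.07 ± 0.73, and a flagged one of LSC2 had 1.28 ± 0.23.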
